A study of Mus musculus with 3 samples.

Results

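Described here are 10 genes of the Eph receptor and ephrin family in the lumbar spinal cord of SOD1G93A mice, a model of amyotrophic lateral sclerosis (ALS). The members were chosen by symbol in the table of unique molecular identifiers (UMIs, tags that mark single captured RNA molecules): the EphA receptors Epha3, Epha4, Epha5, Epha6 and Epha7, the EphB receptors Ephb1 and Ephb2, the ephrin-A Efna5, and the ephrin-Bs Efnb2 and Efnb3. They are 10 of the 31040 genes of the table and 10 of the 22 Eph receptors and ephrins in it.

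Eph receptors are the largest family of receptor tyrosine kinases, and their ligands, the ephrins, are held at the surface of the neighbouring cell. Ephrin-As are tied to the membrane by a lipid anchor and mostly bind EphA receptors, whereas ephrin-Bs cross the membrane and mostly bind EphB receptors, with Epha4 able to bind ligands of both classes. Contact sends a signal into the receptor cell (forward) and into the ligand cell (reverse), usually ending in repulsion. In the spinal cord the family is best known for guiding axons and sorting motor neurons during development, and for roles at synapses, in astrocytes after injury and in blood vessels in the adult.

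RNA was sequenced from single nuclei of 12 mice, taken from the lumbar cord at day 90. Of these, 6 carried the high-copy human SOD1 transgene with the G93A mutation (SOD1G93A, strain B6.Cg-Tg(SOD1*G93A)1Gur/J) and 6 were C57BL/6J littermates without it (WT), with 3 males and 3 females of each genotype. Nuclei were tagged with hashing antibodies that mark the mouse, and 1 mouse of each sex and genotype went into each of the pools A, B and C. The transgene is expressed from the promoter of the human gene and is not limited to any cell type, and the WT mice carry no transgene.

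The table holds 14662 nuclei and 206486779 UMIs, with 6411715 to 36668441 UMIs per mouse. Sod1 stood at 31.2 to 106 UMIs per 1000000 UMIs (CPM) over all nuclei of the WT mice and at 174 to 594 in the SOD1G93A mice, which did not overlap. The deposited labels give 10 cell types and 9 sub-types of neuron. In WT mice the nuclei labelled microglia carried 62.4 CPM of their own markers (Cx3cr1, Csf1r and Ptprc summed) beside 501 CPM of neuron markers, and those labelled Schwann and meningeal cells carried 478 CPM of neuron markers. The sum of Mbp and Mog, genes of myelin, had a mean of 1258 CPM in the WT nuclei labelled microglia and of 2189 CPM in those labelled Schwann and meningeal cells, against 3295 CPM in oligodendrocytes. For these labels the member levels below are those of the labelled nuclei, and the part of other cells in them was not tested. Ependymal cells and fibroblasts were few, with medians of 8 and 2 nuclei per mouse.

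The members fell into groups by the cells that held them (plot of mean levels in WT mice). Over all 12 mice, Epha3, Epha5, Epha6, Epha7, Ephb2 and Efna5 had 82.5% to 87.4% of their UMIs in neurons other than motor neurons, which held 70.9% of all UMIs of the table. The share was 73.9% for Efnb2, 63.1% for Epha4, 56.7% for Ephb1 and 36.9% for Efnb3. By level, Ephb1 stood out in oligodendrocytes, and Epha4 and Efnb2 in endothelial cells. Efnb3 was higher in oligodendrocytes than in neurons. Its WT mice there overlapped with those of Schwann and meningeal cells, microglia and OPCs. Cell types came from clustering of these nuclei on all genes, so that levels between types are given as a description, without a test.

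**Figure D1:**
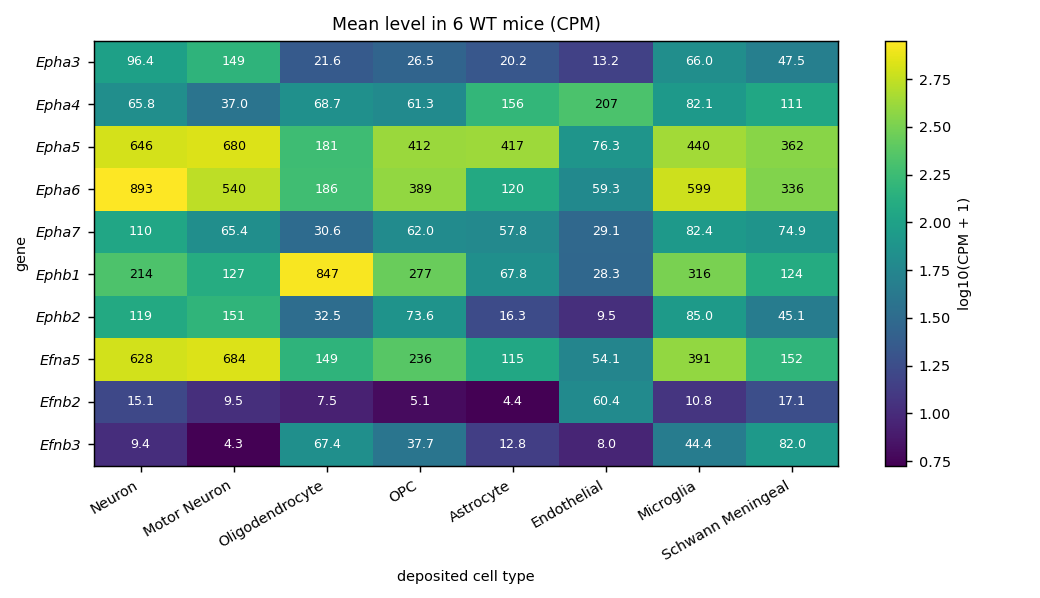
Mean level of the 10 members (rows) in 8 deposited cell types (columns) over 6 WT mice, in UMIs per 1000000 (numbers in the cells, coloured on a log10 scale). Ephb1 was at 847 CPM in oligodendrocytes and 214 CPM in neurons, and Epha4 at 207 CPM in endothelial cells and 65.8 CPM in neurons.

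The members lie on 8 chromosomes of the mouse genome (build GRCm38), and each value counts UMIs over the whole gene, introns included. Epha3 (chr16:63543534-63864175) and Epha6 (chr16:59653483-60605531) share a chromosome, as do Epha7 (chr4:28813131-28967499) and Ephb2 (chr4:136647539-136835988). Epha4 lies at chr1:77367185-77515088, Epha5 at chr5:84054761-84417382 and Ephb1 at chr9:101922128-102354693. Of the ligands, Efna5 lies at chr17:62604184-62881317, Efnb2 at chr8:8617434-8661242 and Efnb3 at chr11:69554092-69560205. Only Epha7 is on the plus strand.

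Since introns were counted, long genes can collect more UMIs, and levels of different genes are also given per kb of the gene's span. Whether UMIs rise in proportion to the span was not tested, and dividing by it lifts a short gene such as Efnb3. In WT neurons Efna5 came first on this scale, at 2.27 CPM per kb of its 277.1 kb, followed by Epha5 at 1.78 CPM per kb (362.6 kb) and Efnb3 at 1.54 CPM per kb (6.1 kb). Epha6, the highest of the members in plain CPM, followed at 0.938 CPM per kb of its 952.0 kb. Epha3 was the lowest of the 10 in neurons, at 0.301 CPM per kb (320.6 kb). In oligodendrocytes the per-length order was led by Efnb3 at 11.1 CPM per kb, above Ephb1 at 1.96 CPM per kb of its 432.6 kb. In plain CPM the order there was the other way, with Ephb1 at 847 CPM and Efnb3 at 67.4 CPM. In endothelial cells Epha4 (1.4 CPM per kb), Efnb2 (1.38) and Efnb3 (1.30) came first.

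Among the EphA receptors, Epha6 was highest in neurons, with 893 ± 37.0 CPM (SD, n = 6 WT mice). Its lowest WT mouse in neurons, at 819.5 CPM, was above every WT mouse of microglia, the next type in the order, whose highest was at 688 CPM. The WT mice of motor neurons, at a lower mean of 540 CPM, spanned 279 to 973 CPM and overlapped with those of neurons. Epha5 was at 680 ± 124 CPM in motor neurons and 646 ± 54.1 CPM in neurons, which overlapped, and at 417 ± 40.5 CPM in astrocytes. The WT mice of neurons were all above those of microglia (357.6 to 570 CPM), the next type in the order. Epha7 was at 109.5 ± 6.21 CPM in neurons and at 30.6 ± 12.9 CPM in oligodendrocytes. Fibroblast nuclei had a higher mean of Epha7, 227 CPM, from 28 UMIs in all WT mice. Epha3 was at 149 ± 60.6 CPM in motor neurons and 96.4 ± 8.64 CPM in neurons, and its WT mice overlapped between these types. The mean of Epha3 in fibroblasts, 258 CPM, came from 26 UMIs and spanned 0 to 705 CPM.

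Epha4, the receptor of broadest ligand binding, had a pattern of its own. It was highest in endothelial cells, with 207 ± 53.5 CPM, then in astrocytes, with 156 ± 23.9 CPM, and the WT mice of these types overlapped. Neurons held 65.8 ± 4.47 CPM, and motor neurons 37.0 ± 19.9 CPM. Over all 12 mice, Epha4 was above the neuron level in astrocytes in 12 of 12 mice, with a median ratio of 2.36, and in endothelial cells in 12 of 12, with a median ratio of 3.54. Motor neurons were below other neurons in 12 of 12 mice, with a median ratio of 0.563.

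Of the EphB receptors, Ephb1 was highest in oligodendrocytes. The WT mice spanned 745 to 971 CPM there (mean 847 ± 75.5), and none of the other types reached this range in WT mice. Neurons followed OPCs (277 ± 110 CPM) and microglia (316 ± 32.3 CPM) at 214 ± 24.7 CPM. Mbp and Mog, summed, spanned 1065 to 1506 CPM in the WT nuclei labelled microglia and 725 to 2015 CPM in WT OPCs, against 2683 to 3805 CPM in oligodendrocytes. The part of oligodendrocyte RNA in the microglia and OPC levels of Ephb1 was not tested. In every one of the 12 mice Ephb1 was higher in oligodendrocytes than in neurons (median ratio 4.18, range 3.16 to 4.75) and than in OPCs, their precursors (median ratio 2.82, range 2.10 to 7.45). A UMI of Ephb1 was found in 91.6% of oligodendrocyte nuclei, at a median depth of 5786 UMIs, and in 13.2% of endothelial nuclei, at a deeper 6963 UMIs. Ephb2, a receptor of excitatory synapses, had no such peak in glia, with 119 ± 16.6 CPM in neurons, 151 ± 55.4 CPM in motor neurons and 32.5 ± 9.37 CPM in oligodendrocytes.

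Efna5, the only ephrin-A among the members, was at 628 ± 75.3 CPM in neurons and 684 ± 137 CPM in motor neurons, which overlapped, and at 149 ± 72.1 CPM in oligodendrocytes. Efnb3 was low in plain CPM and was higher in oligodendrocytes (67.4 ± 15.9 CPM) than in neurons (9.40 ± 0.918 CPM), in 12 of 12 mice, with a median ratio of 6.27. A UMI of Efnb3 was found in 36.6% of oligodendrocyte nuclei and in 12.8% of the deeper neurons. In WT mice Efnb3 in oligodendrocytes (45.0 to 90.4 CPM) overlapped with Efnb3 in microglia (32.8 to 54.0 CPM) and OPCs (27.1 to 69.0 CPM). The nuclei labelled Schwann and meningeal cells held 82.0 ± 43.8 CPM of it, beside 1389 to 2835 CPM of Mbp and Mog summed, and the part of oligodendrocyte RNA in this level was not tested. Efnb2, known from arterial endothelium, was at 60.4 ± 13.1 CPM in endothelial cells against 15.1 ± 1.66 CPM in neurons, higher in 12 of 12 mice. Among the types with nuclei in every mouse, no WT mouse of another type reached the lowest endothelial mouse (42.7 CPM). Fibroblasts had a higher mean of Efnb2, 250 CPM, from 19 UMIs.

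**Figure D2:**
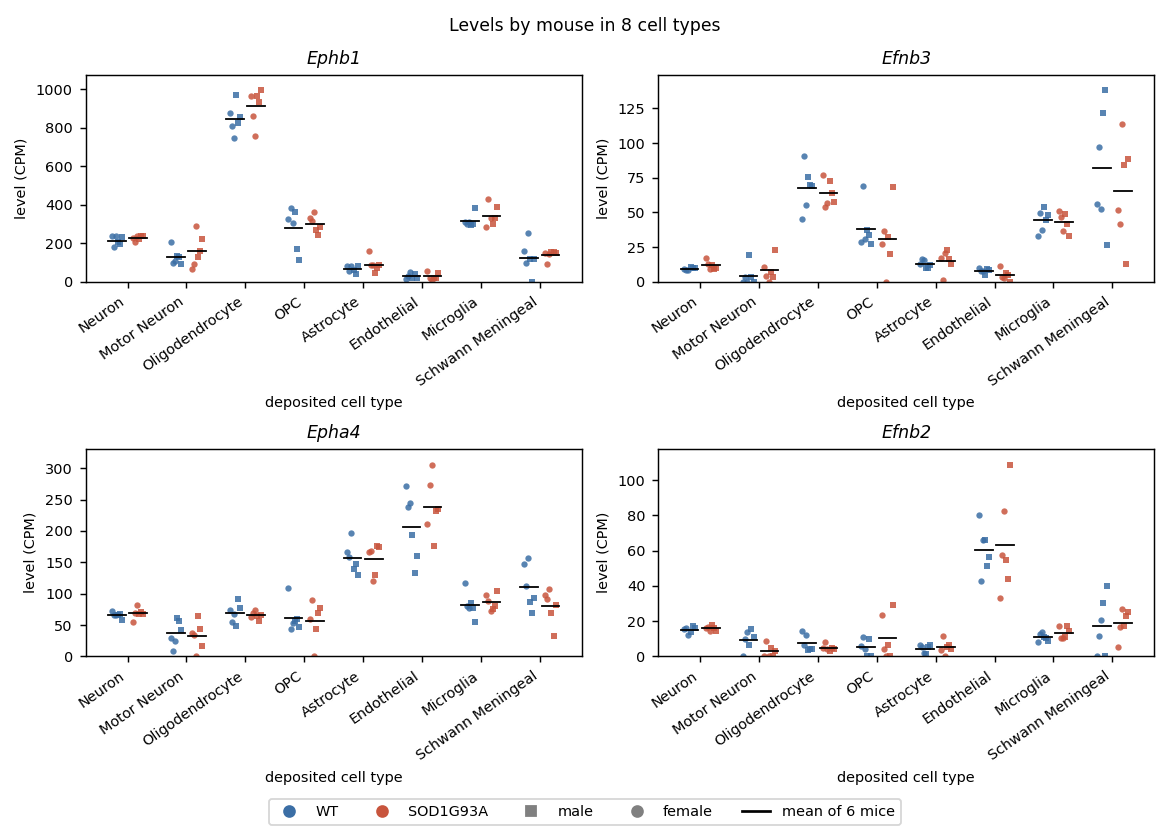
Level of Ephb1, Efnb3, Epha4 and Efnb2 (vertical axis, UMIs per 1000000) by mouse in 8 deposited cell types, with WT in blue, SOD1G93A in red, males as squares, females as circles and the mean of 6 mice as a line. The oligodendrocyte mice of Ephb1 lie at 745 CPM and above in WT, and the endothelial mice of Efnb2 at 42.7 CPM and above in WT.

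RNA of neurons was also counted in nuclei of glia, so that the level of each member in glia was set beside that of the neuron markers Grin1, Rbfox3 and Camk2a. In astrocytes these markers were at a median of 20.5% of their level in neurons of the same mouse. Epha4 (median 236%), Epha5 (64.0%) and Epha7 (51.0%) were above the markers' share in 12 of 12 mice. Epha6 (15.4%) was above it in 3 mice and Ephb2 (18.5%) in 5, so that these genes lay near the markers' share. Efna5 (22.4%) and Epha3 (22.4%) were above it in 8 mice each, and Ephb1 (34.8%) and Efnb3 (134%) in 11 each. Ephb1 and Efnb3 were higher in oligodendrocytes than in neurons, and the comparison with the neuron markers covers RNA of neurons only. Mbp and Mog, summed, had a mean of 752.5 CPM in WT astrocytes against 3295 CPM in oligodendrocytes. The part of oligodendrocyte RNA in the astrocyte levels of Ephb1 and Efnb3 was not tested. Without the 5% of astrocyte nuclei with most UMIs, the WT means fell from 120 to 80.3 CPM for Epha6, from 67.8 to 36.2 CPM for Ephb1 and from 16.3 to 5.74 CPM for Ephb2.

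In oligodendrocytes the neuron markers were at a median of 21.9% of the neuron level. Ephb1 (418%), Efnb3 (627%) and Epha4 (98.9%) were above that share in 12 of 12 mice. Epha6 (22.6%) was above it in 6 mice and Efna5 (21.2%) in 5. Without the 5% of oligodendrocyte nuclei with most UMIs, the WT mean of Ephb1 rose from 847 to 980 CPM, and that of Epha6 fell from 186 to 106 CPM. In endothelial cells the markers were at 6.46%, and Epha4 (354%) and Efnb2 (350%) were above it in 12 of 12 mice, while Ephb2 (3.08%) and Epha6 (5.99%) were above it in 4 mice each. In the nuclei labelled microglia the markers themselves were at 63.7%, close to Epha6 at 65.5%, Epha5 at 65.6% and Efna5 at 64.6%. Efnb3 (423%), Ephb1 (142%) and Epha4 (119%) were above the markers' share there in 12 of 12 mice, and Ephb2 (83.6%) in 11. These nuclei also held Mbp and Mog, as given above, and the part of oligodendrocyte RNA in Efnb3 and Ephb1 was not tested.

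Within neurons, levels followed the deposited sub-types, which the study assigned by mapping to a published atlas: dorsal, mid and ventral excitatory (DE, ME, VE) and inhibitory (DI, MI, VI) neurons, ventral cholinergic neurons other than motor neurons (VC) and ventral mixed neurons (VM). Of the markers of transmitters, the glutamate transporter Slc17a6 was at 98.8 to 116 CPM in DE, ME and VE and at 11.8 to 30.0 CPM in DI, MI and VI, and the glycine transporter Slc6a5 at 84.6 to 151 CPM in DI, MI and VI. VC held 54.5 CPM of Chat, the enzyme of acetylcholine synthesis, but also 107 CPM of Slc17a6.

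Epha4 and Efnb3 differed between dorsal and ventral neurons in opposite directions. Epha4 was lower in DE (35.7 ± 5.54 CPM, WT) than in VE (94.8 ± 10.2 CPM) in 12 of 12 mice, with a median ratio of 0.353, and lower in DI (34.7 ± 9.38 CPM) than in VI (81.7 ± 9.54 CPM) in 12 of 12, with a median ratio of 0.432. It was highest in ME, at 161 ± 39.3 CPM, where each WT mouse (124 CPM or more) was above every WT mouse of VE, the next sub-type. Efnb3 was higher in DE (12.5 ± 2.08 CPM) than in VE (4.17 ± 2.21 CPM) and higher in DI (15.5 ± 0.281 CPM) than in VI (4.07 ± 0.816 CPM), in 12 of 12 mice for each pair. In VI Efnb3 had 36 UMIs in WT and 24 in SOD1G93A mice and did not pass the count minimum. Mbp and Mog, summed, had a mean of 161 CPM in WT neurons against 3295 CPM in oligodendrocytes. The part of oligodendrocyte RNA in the sub-type levels of Efnb3 was not tested.

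Epha3 and Epha6 differed between excitatory and inhibitory neurons of the dorsal cord. Epha3 was at 153 ± 15.3 CPM in DE and 58.9 ± 4.15 CPM in DI, higher in DE in 12 of 12 mice, with a median ratio of 2.41, and at 262 ± 99.3 CPM in ME against 100 ± 39.5 CPM in MI, again in 12 of 12. Between VE (68.7 ± 12.9 CPM) and VI (54.0 ± 9.59 CPM) it was higher in VE in 8 of 12 mice. Epha6 was at 425 ± 48.0 CPM in DI and at 940 ± 86.9 CPM in DE, higher in DE in 12 of 12 mice, whereas VE (1048 ± 96.3 CPM) and VI (1053 ± 143 CPM) overlapped, with VE higher in 8 mice. In DI it was lower than in VI in 12 of 12 mice, with a median ratio of 0.416. VM (583 ± 219 CPM) and motor neurons (540 ± 252 CPM) were the next lowest in Epha6 among the neurons.

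For the other members the values were as follows. Ephb1 was higher in DE (244 ± 23.8 CPM) than in VE (190 ± 22.4 CPM) and than in DI (184 ± 20.6 CPM), in 12 of 12 mice each, with median ratios of 1.4 and 1.36. Ephb2 was lower in DE (112 ± 17.6 CPM) than in DI (144 ± 29.5 CPM) in 12 of 12, with a median ratio of 0.785. Epha5 ranged over the sub-types from 557 CPM in DI to 751 CPM in VE, Epha7 from 95.4 CPM in the neurons without a clear sub-type to 135 CPM in VC, and Efna5 from 475 CPM in MI to 779 CPM in VM. Efnb2 was at 9.46 CPM in MI and 24.2 CPM in ME, higher in ME in 12 of 12 mice, with a median ratio of 2.33. These levels rest on 62 and 42 UMIs in WT mice, and Efnb2 did not pass the count minimum in either sub-type.

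**Figure D3:**
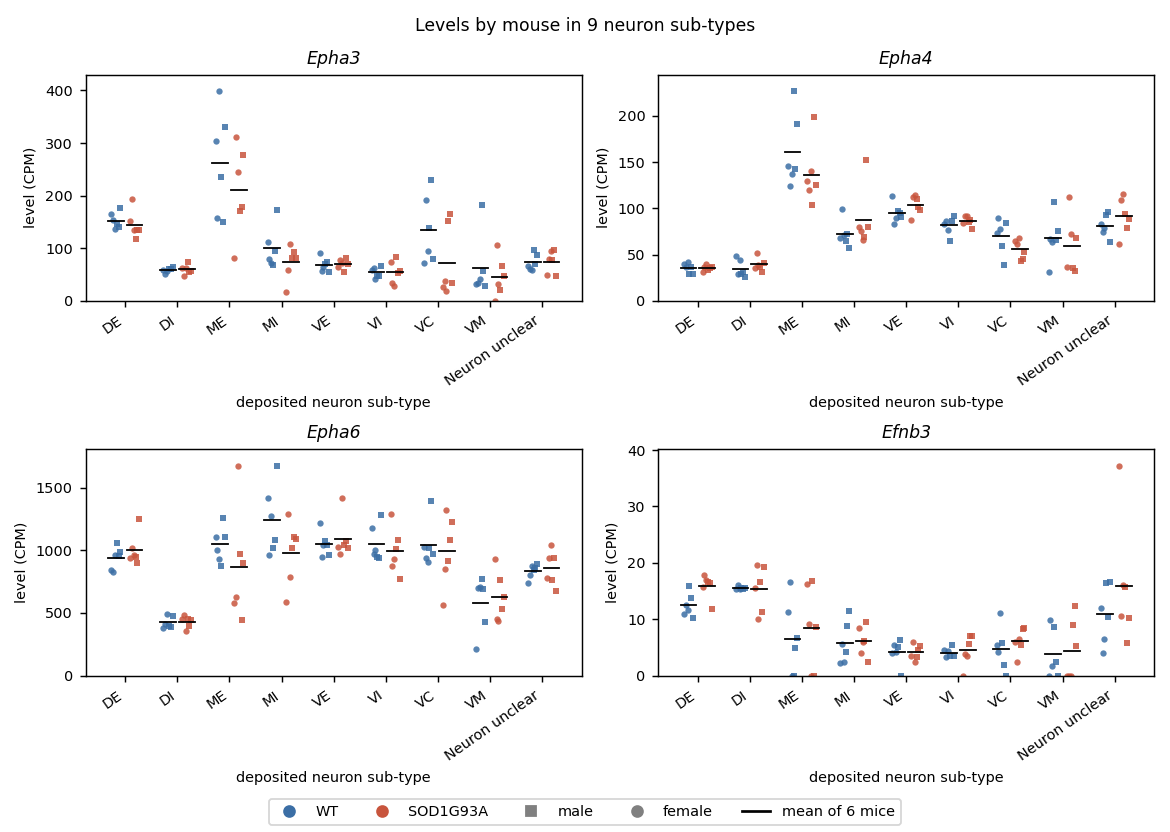
Level of Epha3, Epha4, Epha6 and Efnb3 (vertical axis, UMIs per 1000000) by mouse in the 9 deposited neuron sub-types, with WT in blue, SOD1G93A in red, males as squares, females as circles and the mean of 6 mice as a line. Epha4 is lower and Efnb3 higher in DE and DI than in VE and VI, and Epha6 is at 425 CPM in DI of WT mice.

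The comparison of genotypes asked which members differed between SOD1G93A and WT mice within a cell type. UMIs were summed per mouse, and limma's voom model with a term for each pool was run on all genes with enough counts. P values were adjusted within each type over all its tested genes (Benjamini-Hochberg), and a gene was called under 0.1. Fewer nuclei of a kind and less RNA per nucleus cannot be told apart within such a sum. The genotype effect of each member is drawn with its SE.

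**Figure D4:**
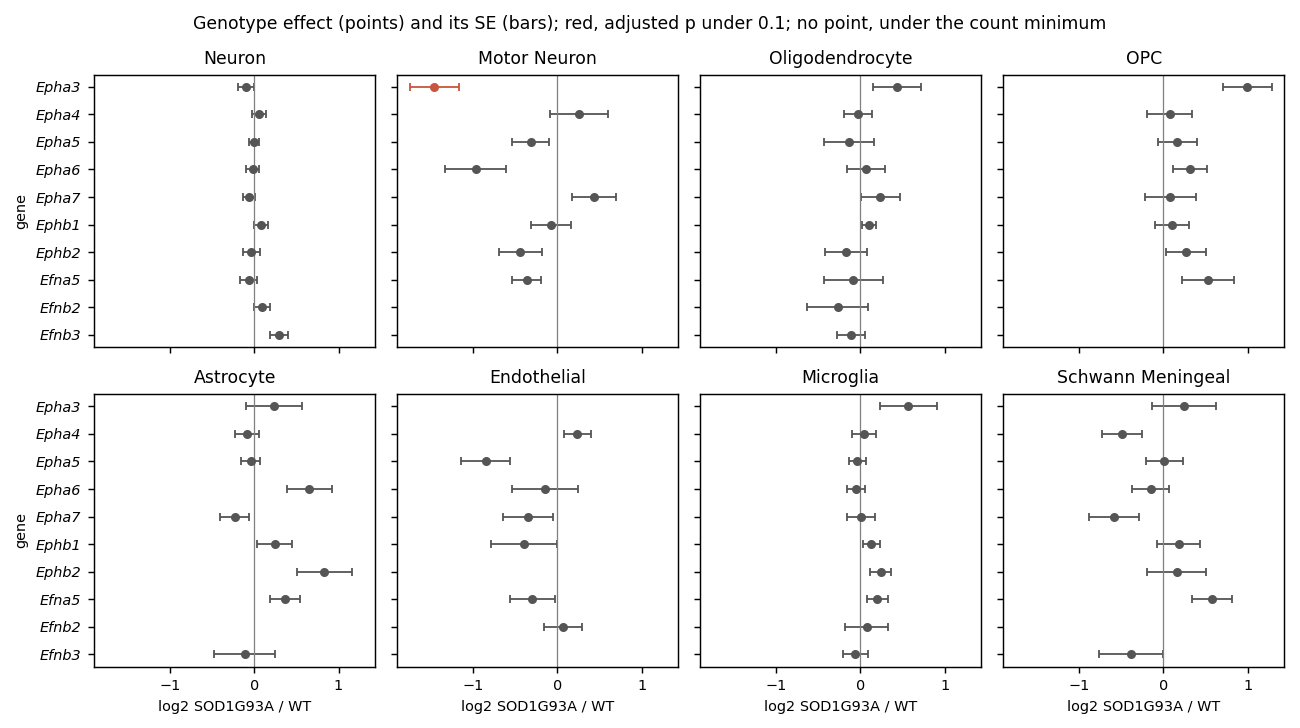
Genotype effect of the 10 members in 8 cell types, as the log2 ratio of SOD1G93A to WT (points) with its SE (bars) from limma-voom on 12 mice. Epha3 in motor neurons, at -1.46, is the only effect called (red), and genes under the count minimum have no point.

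Over the 9 cell types in which any member could be tested, 1 of 74 member tests was called by limma, Epha3 in motor neurons, and 10 had an unadjusted p under 0.05. The share of all genes at an unadjusted p under 0.05 was not counted, here or below. By edgeR 1 was called, and by DESeq2 3, with Epha6 in motor neurons and in astrocytes added. The shares of all genes that edgeR and DESeq2 called were not counted, here or below. In motor neurons 1 of 8 members tested was called, where 3.07% of all 5118 genes tested were called, 1.64% as lower in SOD1G93A. The study had named Epha3 as lower in these motor neurons, and the members were chosen with earlier results of these data known. The 1 of 8 is thus given as a description. The median effect of the 8 members was -0.34 on the log2 scale, against 0.00 over all genes tested.

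In the other types limma called 0 members. The shares of all genes below are of calls, and have no bearing on the member counts at an unadjusted p under 0.05. Of all genes tested, 2.29% were called in astrocytes (9 members tested, 2 with an unadjusted p under 0.05), 0.0255% in neurons (10 members, 1), 0.0475% in oligodendrocytes (10 members, 0) and 0.0411% in OPCs (8 members, 1). The share was 0.0131% in endothelial cells (7 members, 1 with an unadjusted p under 0.05), 0.0759% in microglia (10 members, 0) and 0.036% in Schwann and meningeal cells (9 members, 2). It was 0.0% in fibroblasts (3 members, 0) and 0.0% in ependymal cells, in which no member passed the count minimum. In neurons, the type with most UMIs, the 10 effects lay between -0.10 and 0.29 on the log2 scale. The highest was that of Efnb3 (0.29 ± 0.11, SE), with an adjusted p of 1.00 by limma. Mbp and Mog, summed, spanned 117 to 210 CPM in WT and 146 to 296 CPM in SOD1G93A neurons (means 161 and 209), and their part in the effect of Efnb3 was not tested. In OPCs the 8 effects were all above 0, with a median of 0.22 against -0.01 over all genes tested. The neuron markers in the OPC nuclei spanned 274 to 403 CPM in WT (mean 342) and 90.2 to 652 CPM in SOD1G93A mice (mean 412), 1 SOD1G93A mouse had 2 OPC nuclei, and their part in these effects was not tested.

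Epha3, an EphA receptor of developing motor axons, fell in SOD1G93A motor neurons. The female WT mice of pools A, B and C were at 130.5, 165 and 184 CPM, and the male WT mice at 71.4, 103 and 240.5 CPM. The female SOD1G93A mice were at 27.0, 51.5 and 108.5 CPM, and the males at 19.3, 51.7 and 107 CPM. The SOD1G93A mouse was lower in 6 of 6 pairs of the same sex and pool, and the genotypes overlapped across pools, since both SOD1G93A mice of pool C were above the 2 lowest WT mice. The log2 fold change was -1.46 ± 0.29 (SE), with an adjusted p of 0.0176 by limma, and was -1.41 in males and -1.51 in females.

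The counts behind this were small. The WT mice had 350 UMIs of Epha3 in 44 motor neuron nuclei (22 to 98 UMIs per mouse) and the SOD1G93A mice 75 UMIs in 23 nuclei (3 to 33 UMIs per mouse). A UMI of Epha3 was found in 77.3% of the WT nuclei, at a median of 43895 UMIs, and in 78.3% of the SOD1G93A nuclei, at a median of 60146 UMIs. The nucleus with most Epha3 held 17.1% of the UMIs of Epha3 in WT mice and 17.3% in SOD1G93A mice. The adjusted p was 0.00906 by edgeR and 0.00133 by DESeq2, between 0.00989 and 0.0781 with each mouse left out, and 0.0996 without the mice of fewer than 3 motor neurons. It was 0.107 without the term for pools and 0.135 with a minimum count of 30, where the call was lost.

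Marker levels in the motor neurons were set beside this. The summed motor neuron markers Slit3, Prph and Chat were at 1097 to 1649 CPM in WT and 679.5 to 2422 CPM in SOD1G93A mice, and the neuron markers at 440 to 759 CPM and 380 to 651 CPM. The markers of OPCs (Cspg4, Tnr and Vcan), summed, had medians of 1417 CPM in WT and 1081 CPM in SOD1G93A mice. In WT motor neurons 1 of these 3 genes had no UMI, so that the sum came from the others. In SOD1G93A motor neurons each of them had UMIs. Mbp and Mog, summed, had medians of 116 CPM in WT and 222 CPM in SOD1G93A mice, with ranges of 26.3 to 340 CPM and 30.0 to 284 CPM. The part of these levels in the lower Epha3 was not tested.

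**Figure D5:**
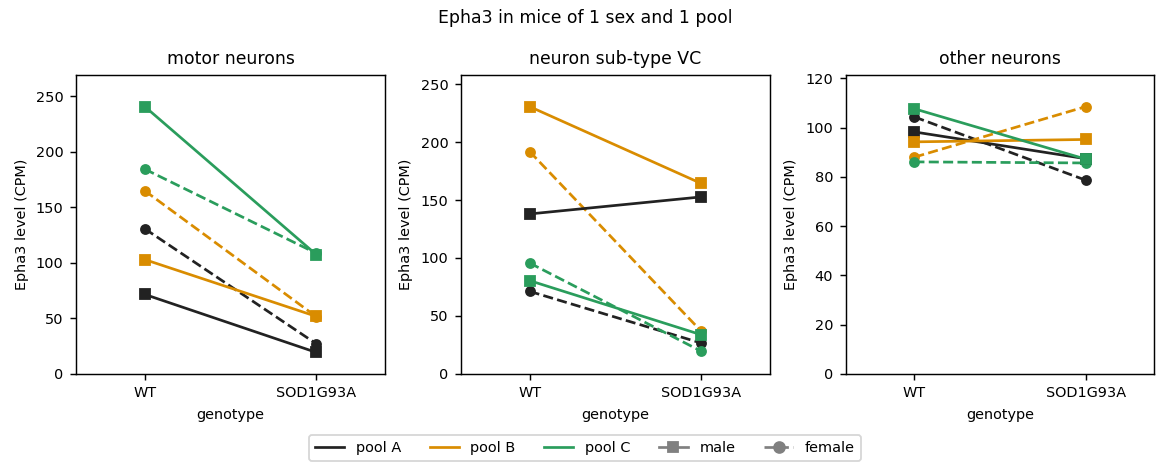
Epha3 (vertical axis, UMIs per 1000000) in WT and SOD1G93A mice in motor neurons, in the sub-type VC and in other neurons. A line joins mice of the same sex and pool, with colours for pools A to C and squares for males. The other neurons are all neurons except motor neurons, VC included. In motor neurons 6 of 6 lines fall, in VC 5 of 6, and in other neurons 4 of 6, between 78.6 and 108.5 CPM.

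Outside motor neurons Epha3 was not called by limma in the main run, and DESeq2 called it in VC. In VC limma also called it without a filter on low counts, without female WT replicate 1 and without male SOD1G93A replicate 1. With each mouse left out its adjusted p in VC lay between 0.00466 and 0.972 by limma. In the cell type of neurons other than motor neurons, which includes VC, its effect was -0.10 ± 0.09 on the log2 scale (adjusted p = 1.00 by limma). Its levels there were 96.4 ± 8.64 CPM in WT and 90.4 ± 10.3 CPM in SOD1G93A mice. VC, labelled as ventral cholinergic, was mixed in its markers, with Chat at 2.74 to 124 CPM over the 12 mice. The motor neuron markers in VC spanned 227 to 1107 CPM in WT and 112.5 to 729 CPM in SOD1G93A mice, and their part in Epha3 there was not tested. For Epha3 in VC, the WT mice were at 71.2, 192 and 95.7 CPM (females of pools A, B and C) and 138, 231 and 80.4 CPM (males). The SOD1G93A mice were at 26.6, 36.9 and 19.6 CPM and 153, 164 and 33.8 CPM. The SOD1G93A males of pools A and B thus lay in the WT range, and the other 4 below every WT mouse. The effect was -1.27 ± 0.27, with an adjusted p of 0.422 by limma and 0.0207 by DESeq2. It was -2.13 in females and smaller in males, where the SOD1G93A mouse of pool A (153 CPM) was above its WT pair (138 CPM). The difference between the effects in motor neurons and in VC was not tested. In OPCs the effect had the other sign, 1.00 ± 0.29 (adjusted p = 0.416 by limma), with 0 to 109.7 CPM in SOD1G93A and 6.77 to 36.3 CPM in WT mice, and 83 and 69 UMIs.

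Of the other members in motor neurons, Epha6 was lower in 6 of 6 pairs, with an effect of -0.97 ± 0.37 (adjusted p = 0.238 by limma). The WT mice spanned 279 to 973 CPM with a median of 509 CPM, and the SOD1G93A mice 36.2 to 583 CPM with a median of 213 CPM, so that the groups overlapped. DESeq2 gave an adjusted p of 0.0598, limma without a filter on low counts one of 0.000632 and limma without the 5% of nuclei with most UMIs one of 0.0822, so that Epha6 was called in these alternatives. With each mouse left out the adjusted p lay between 0.137 and 0.476, and leaving out the mice of fewer than 3 nuclei gave an effect of -0.74 with an adjusted p of 0.696. Efna5 had an effect of -0.37 ± 0.17 (adjusted p = 0.285) and was lower in 4 of 6 pairs, and lay between -0.62 and -0.21 over the alternatives, with -0.59 without female SOD1G93A replicate 1. The effects of Epha4, Epha5, Epha7, Ephb1 and Ephb2 lay between -0.44 and 0.43 with an unadjusted p above 0.05, and Efnb2 and Efnb3, with 32 and 27 UMIs in all motor neurons, did not pass the count minimum.

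In astrocytes 2 members had an unadjusted p under 0.05 without being called by limma. Ephb2 had an effect of 0.83 ± 0.33 (adjusted p = 0.256 by limma), with 4.22 to 25.5 CPM in WT and 17.0 to 32.4 CPM in SOD1G93A mice. With each mouse left out this effect lay between 0.42 (without female WT replicate 2; 0.44 without male WT replicate 1) and 1.35 (without male WT replicate 2, adjusted p = 0.0475 by limma). Epha6 had an effect of 0.65 ± 0.26 (adjusted p = 0.312 by limma and 0.0725 by DESeq2, which called it) and was higher in SOD1G93A in 6 of 6 pairs, with 69.0 to 155 CPM in WT and 133 to 289.5 CPM in SOD1G93A mice. Without the 5% of nuclei with most UMIs the effect of Epha6 turned to -0.08. Both lay near the share of the neuron markers in astrocytes, and those markers spanned 103 to 209 CPM in WT and 143 to 244 CPM in SOD1G93A mice. Other marker levels in these nuclei were set beside them, without a test. The astrocyte markers Aqp4, Aldh1l1 and Gfap, summed, spanned 867 to 1122 CPM in WT and 1672 to 2225 CPM in SOD1G93A mice, which did not overlap. This sum holds Gfap, which the study reports as differing between the genotypes in astrocytes, and Gfap was not split from it. Mbp and Mog, summed, spanned 600.5 to 909 CPM in WT and 759 to 1509 CPM in SOD1G93A mice, which overlapped. The part of these levels in the effects was not tested. Of the members above that share in 11 or 12 mice, Epha4 had an effect of -0.09 ± 0.14, Epha5 of -0.04 ± 0.12, Epha7 of -0.23 ± 0.17, Ephb1 of 0.24 ± 0.21 and Efnb3 of -0.11 ± 0.36. The effect of Efnb3 had the opposite sign to its means (12.8 CPM in WT and 15.2 CPM in SOD1G93A mice, higher in 5 of 6 pairs), and 1 SOD1G93A mouse was at 1.42 CPM, from 1 UMI.

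The members described above as higher in oligodendrocytes or endothelial cells than in neurons were not called between the genotypes there. Ephb1 in oligodendrocytes was at 847 ± 75.5 CPM in WT and 913 ± 89.0 CPM in SOD1G93A mice, with an effect of 0.10 ± 0.08, and Efnb3 there at 67.4 ± 15.9 and 63.7 ± 9.39 CPM, with an effect of -0.11 ± 0.16. In endothelial cells Epha4 had an effect of 0.24 ± 0.16 and Efnb2 of 0.07 ± 0.23. Epha5 in endothelial cells, at 50.3 to 161 CPM in WT and 26.5 to 50.5 CPM in SOD1G93A mice, was lower in 6 of 6 pairs, with an effect of -0.85 ± 0.29 (adjusted p = 0.980 by limma). The effect was -0.50 without male WT replicate 2, the mouse at 161 CPM, and -0.31 without the 5% of nuclei with most UMIs. Epha5 there was at a median of 7.97% of its neuron level, beside 6.46% for the neuron markers, and above their share in 9 of 12 mice. These markers spanned 33.9 to 103 CPM in WT and 17.6 to 139 CPM in SOD1G93A endothelial cells, and their part in the effect was not tested. In Schwann and meningeal cells Efna5 (0.58 ± 0.23) was higher and Epha4 (-0.49 ± 0.24) lower in 6 of 6 pairs each, with an adjusted p of 0.999 for each, and the effect of Epha4 was -0.18 without the 5% of nuclei with most UMIs. In these nuclei Mbp and Mog had means of 2189 CPM in WT and 1659 CPM in SOD1G93A mice, and the neuron markers 478 and 402 CPM. The motor neuron markers had means of 94.4 CPM (39.8 to 162) in WT and 240 CPM (103 to 775) in SOD1G93A mice. Efna5 there was above the neuron markers' share in 1 of 12 mice and Epha4 in 12, and the part of these levels in both effects was not tested.

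In the 9 neuron sub-types together, limma called 0 of 82 member tests, where it called 0.0252% of all tests. EdgeR called 0 and DESeq2 1 (Epha3 in VC). An unadjusted p under 0.05 by limma was found in 7 member tests, and its share over all genes was not counted. Efnb3 in DE was higher in 6 of 6 pairs, with an effect of 0.35 ± 0.14 (adjusted p = 0.629). Mbp and Mog spanned 146 to 242 CPM in WT and 196 to 348 CPM in SOD1G93A mice in DE, and their part in this was not tested. Ephb1 in VC was higher in 5 of 6 pairs, with an effect of 0.50 ± 0.14 (adjusted p = 0.648). Ephb1 in ME was lower in 6 of 6 pairs, at -0.46 ± 0.19 (adjusted p = 0.994), which was -0.81 without female SOD1G93A replicate 3 and -0.31 without female SOD1G93A replicate 2. The sub-types DE, DI and VE had member effects between -0.12 and 0.35.

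No member was called between the sexes by limma, where it called 0.125% of all tests over types and sub-types, and edgeR made 0 calls of members. An unadjusted p under 0.05 by limma was found in 8 of 74 tests in cell types and 6 of 82 in sub-types. Its share over all genes was not counted. The genotype effect differed between the sexes for 1 member, where 0.0436% of all tests were called for this difference, and 0.459% of those in the neurons without a clear sub-type. In these neurons Efnb3 was at 11.9, 4.01 and 6.42 CPM in WT females of pools A, B and C and at 37.2, 10.5 and 16.1 CPM in SOD1G93A females. The males were at 16.4, 10.4 and 16.7 CPM in WT and at 15.8, 5.79 and 10.2 CPM in SOD1G93A. Females were thus higher and males lower in SOD1G93A in every pool, with 6 to 51 UMIs per mouse. Mbp and Mog, summed, were in the same nuclei at 384, 152 and 215 CPM in WT females and 682, 233 and 555 CPM in SOD1G93A females, and at 471, 201 and 451 CPM in WT males and 418, 228 and 277 CPM in SOD1G93A males. They were thus higher in SOD1G93A females in every pool and lower in SOD1G93A males in pools A and C, and their part in the difference of Efnb3 was not tested. The effect was 1.42 in females and -0.37 in males, and their difference, males minus females, was -1.78 ± 0.39 (adjusted p = 0.0574 by limma). It was not called by edgeR (0.147), without a filter on low counts (0.171), without the term for pools (0.997) or with any of 7 mice left out in turn, and with each mouse left out the adjusted p lay between 0.00737 and 0.484.

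The partners of the family were looked at as a list of 50 genes, of which 49 are in the table: the other 12 Eph receptors and ephrins, 27 genes of forward signalling, 6 of reverse signalling and scaffolds and 4 of cleavage and turnover. In neurons 43 of them passed the count minimum, in motor neurons 30 and in astrocytes 36. Over the 10 cell types, 2 tests were called, both lower in SOD1G93A. The list was chosen with earlier results of these data known, among them the study's report of lower Grip1 in motor neurons. Its counts beside the shares of all genes are thus a description. Of the other Eph receptors and ephrins, 7 of 12 could be tested in neurons, 3 in endothelial cells and at most 2 in any other type, and 0 were called by limma, with 1 unadjusted p under 0.05.

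In motor neurons 1 of 30 was called, Grip1, a scaffold with PDZ domains that binds ephrin-B ligands and AMPA receptors, a share near the 3.07% of all genes called there (1.64% as lower). It was at 5048 ± 1133 CPM in WT mice (3234 to 6144) and 2581 ± 484 CPM in SOD1G93A mice (1775 to 3105), and the genotypes did not overlap. Its effect was -1.07 ± 0.18 (adjusted p = 0.00929 by limma), lower in 6 of 6 pairs, with 64 to 3086 UMIs per mouse. The median effect of the 30 was -0.04, against 0.00 over all genes.

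In astrocytes 1 of 36 was called, Vav3, an exchange factor of small GTPases that acts downstream of Eph receptors, a share near the 2.29% of all genes called there (0.909% as lower). It was at 341 ± 78.3 CPM in WT (244 to 462) and 188 ± 60.4 CPM in SOD1G93A mice (88.2 to 268), with an effect of -0.93 ± 0.16 (adjusted p = 0.00486 by limma), lower in 6 of 6 pairs. The part in it of the levels of astrocyte markers and of Mbp and Mog, given above for these nuclei, was not tested. The median effect of the 36 was 0.06, against 0.015 over all genes.

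The genes with the pattern most like each member were sought over 18 profiles of WT mice, 9 cell types other than neurons and the 9 sub-types, among 11930 genes of at least 20 CPM in a profile. Pearson's r of log2(mean CPM + 1) is given as a description, since the profiles share libraries and those of fibroblasts and ependymal cells rest on few UMIs. Ephb1 was most like Hid1 (r = 0.976), and Efnb3 most like Opalin (0.944) and Gjc3 (0.931), both genes of oligodendrocytes. Epha5 was most like Cadps (0.966) and Pclo (0.964), genes of the presynapse, and Epha6 most like Snhg11 (0.967) and Meg3 (0.963). Ephb2 was nearest to Sntg1 (0.970), Efna5 to Klhl29 (0.969), Efnb2 to Ppm1g (0.941), Epha7 to Timm9 (0.918) and Epha3 to Lonrf1 (0.849). Epha4 had no close neighbour, with r = 0.741 for Spr at most. Between members, Epha6 and Ephb2 were the most alike (r = 0.918), and Epha4 and Ephb2 the least (-0.609).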

How the data were processed

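The authors deposited UMI counts per gene and nucleus without normalization, made with CellRanger 3.1 on a pre-mRNA reference of mm10, and tables with the mouse, cell type and neuron sub-type of each nucleus. The authors' metadata columns are labels and not measurements. The authors removed nuclei tagged by several mice. Doublets within 1 mouse are not marked, and 15 barcode sequences occur in more than 1 pool. A second deposited table, of values normalized with sctransform, was not used.

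From the counts, UMIs were summed per mouse and type or sub-type, and the 27 neurons that have no sub-type entered only the cell type sums. Levels are UMIs per 1000000 UMIs of these sums (CPM). As in the study, the test was limma (3.58.1 here) with filterByExpr, TMMwsp, voom and terms for sex and genotype group and for pool, called at 0.1. The minimum count of 10 and robust eBayes were set here. edgeR 4.0.16, DESeq2 1.42.0, other scalings and filters, no term for pools and each mouse left out were alternatives. In simulated motor neuron counts, limma recovered 90% of 2-fold and 100% of 4-fold changes. The simulation used the same fixed dispersion for every gene and changed only genes above a minimum mean count. The spread between the real mice was not matched, so these shares do not give the power for the members.

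Mice with the same replicate number share a pool, a batch named in the labels. Deviations from the group means had a median r of 0.246 in the same pool and -0.129 in different pools in neurons, and 0.0204 and -0.000196 in motor neurons. Gene spans are from GENCODE M21 (GRCm38). No other gene of the table overlaps a member on the same strand.

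Named genes are the members, the listed partners past the threshold in a cell type, and for each member the genes of most similar pattern. Members and lists were chosen with earlier results of these data known. The 12 mice are separate animals, and the UMI depth (27658 to 651446 per mouse in motor neurons) sets the precision. Some marker levels are not reported here.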

Additional observations from a re-analysis of the deposited data

Results flagged for a closer look

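The mice of each genotype were searched for values far from the other mice of their group (a gap to the nearest mouse that, divided by the range of the group, is above Dixon's critical value). Chance flags about 1 of 20 groups. Of 148 groups of members and cell types, 13 held 1. Among WT mice these were Efna5 at 52.1 CPM in astrocytes (male of pool A) and at 1644 CPM in fibroblasts (male of pool A), Epha4 at 109.4 CPM in OPCs (female of pool A) and Epha5 at 161.3 CPM in endothelial cells (male of pool B). The others in WT mice were Epha6 at 819.5 CPM and Epha7 at 121.7 CPM in neurons (female of pool B and male of pool A), and Ephb1 at 380.5 CPM in microglia (male of pool C) and 207.6 CPM in motor neurons (female of pool A). Among SOD1G93A mice they were Efnb2 at 8.17 CPM in oligodendrocytes and Ephb1 at 91.3 CPM in Schwann and meningeal cells (both in the female of pool B), Epha3 at 1263 CPM in fibroblasts and Epha7 at 124.4 CPM in neurons (both in the male of pool C), and Ephb2 at 0 CPM in OPCs (the female of pool C, with 2 OPC nuclei). Each of the fibroblast values came from 1 nucleus, of 8516 UMIs in all for Efna5 and 3167 UMIs for Epha3.

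The genotype effect of Efnb3 in the neurons without a clear sub-type differed between the sexes, at -1.78 on the log2 scale for males minus females (adjusted p = 0.0574 by limma). The call was lost in 10 alternative runs, among them edgeR and the run without the term for pools, and kept in 8. The difference rests on 6 to 51 UMIs per mouse. Mbp and Mog in the same nuclei moved the same way in females of every pool and in males of pools A and C, which was not tested.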

How the results depend on the processing

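For the runs other than the main one, the share of all genes called was not counted. In the cell types, where limma called 1 member, DESeq2 called 3, limma without a filter on low counts 2, without the 5% of nuclei with most UMIs 2, with a minimum count of 30 0 and without the replicate block (the pool term) 0. With each mouse left out it called 1 to 2, with 2 without male WT replicate 2 (Ephb2 in astrocytes added, adjusted p = 0.0475). In the sub-types, where limma called 0, DESeq2 called 1, limma without a filter 1, and 0 to 1 with each mouse left out, Epha3 in VC in each case (without female WT replicate 1 or without male SOD1G93A replicate 1). For sex and its interaction, 1 with limma became 0 with edgeR and 0 without the replicate block, and 0 to 2 with each mouse left out. The partner genes called, 2 with limma, were 5 without a filter and 2 to 5 with each mouse left out (5 without female WT replicate 2 or male WT replicate 1), and Vav3 and Grip1 were called in each alternative run. The effect of Epha6 in astrocytes reversed to -0.081 without the 5% of nuclei with most UMIs. The cause was not tested. Among the other alternatives for the named effects, 393 values kept direction and side of the threshold, 9 newly passed it and 12 no longer did.

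Leaving out mice with fewer than 5 nuclei could not be run for motor neurons, since no female SOD1G93A mouse was left, and the limit of 3 nuclei was chosen after seeing the data. With it, Epha3 was at -1.49 (adjusted p = 0.0996 by limma) and Grip1 at -1.0 (0.0692). Motor neurons numbered 1 to 11 nuclei per mouse, and 3 members passed the count minimum in fibroblasts and none in ependymal cells. Doublets within 1 mouse and free RNA in glia were not removed.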
